A study of Homo sapiens with 6 samples.

Results

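The DNA replication machinery was followed here as 50 genes, chosen by name: 12 genes of origin licensing (the MCM2-7 helicase and the origin recognition complex, ORC), 12 genes of origin firing and 26 genes of the replication fork. All 50 were found among the 16834 genes of the deposited table. The libraries came from HEK293-T Flp-In cells, a human embryonic kidney line in which a construct is integrated at 1 genomic site. The construct, ccTaggedRP, runs from a CAG promoter, which is active throughout the cell cycle, and encodes both tagged versions of the mouse ribosomal protein RPL10a. In the Flag-IPs (3 libraries) ribosomes were pulled down by Flag-RPL10a-hCdt, whose fragment of human Cdt1, the authors state, leads to degradation in late S phase, G2 and M. In the HA-IPs (3 libraries) they were pulled down by HA-RPL10a-hGem, whose fragment of human Geminin, the authors state, leads to degradation from late G1 into early S phase. Their prediction of ideal behavior has both tags present in S phase. Both groups therefore share the line, the construct, the culture under Hygromycin B and the absence of any synchronization or treatment, and they differ in the tag that was precipitated. The comparison asks which mRNAs are more abundant on ribosomes that carry the HA tag than on those that carry the Flag tag. The labels do not say whether the 3 libraries of a group came from separate cultures, so p-values measure the spread between these libraries, which may be technical.

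Before S phase, ORC marks origins, and with CDC6 and CDT1 it loads 2 rings of MCM2-7 on the DNA, a step that Geminin blocks once S phase has begun. At firing, the kinase CDC7-DBF4 and cyclin-dependent kinases, with TOPBP1, TICRR, RECQL4, DONSON and MCM10, turn the loaded rings into active helicases by adding CDC45 and the GINS complex. At the fork, DNA polymerase alpha-primase lays down primers, polymerases epsilon and delta extend them on the PCNA clamp that RFC loads, RPA covers the single strands, FEN1, DNA2 and LIG1 finish the Okazaki fragments, and TIMELESS, TIPIN, CLSPN and WDHD1 hold the fork together. Transcription of many of these genes is driven by E2F factors toward S phase.

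Each library held 23174532 to 44134833 reads counted in genes, and a member had between 88 and 68306 reads in a library. Of 8 genes that mark embryonic kidney and HEK293 cells, 8 were in the table, with summed normalized counts of 33099 to 34651 in the Flag-IPs and 33197 to 34126 in the HA-IPs. NEFL alone had 27352 to 29469 normalized counts and made up most of these sums. Of the 8, PAX2 was higher in the Flag-IPs (log2 fold change -0.79, limma adjusted p = 0.0467), INA was higher in the HA-IPs (0.35, limma adjusted p = 0.00646) and 6 did not pass. Of genes of the mature kidney, SLC12A1 and SLC34A1 were both higher in the Flag-IPs, with log2 fold changes of -3.94 and -4.25 (limma adjusted p = 0.00118 and 0.000361). In HA-IP replicates 1 to 3 SLC12A1 had only 1.41, 4.95 and 1.10 normalized counts and SLC34A1 1.41, 5.94 and 5.51. With fewer than the authors' minimum of 10 reads in each HA-IP, both could enter the table only through the Flag-IPs. Their direction was thus set by that filter. Heart muscle genes stood apart between the groups: the table holds 18 of 22 listed genes, all 18 were higher in the Flag-IPs, and their sum was 208255, 151566 and 99218 normalized counts in the Flag-IPs against 3419, 2099 and 19713 in the HA-IPs, which is 0.322% to 0.692% of all normalized counts in the Flag-IPs and 0.00666% to 0.0622% in the HA-IPs. The table holds 5 of 6 listed fibroblast genes, and all 5 were also higher in the Flag-IPs, with sums of 4644 to 7257 against 1311 to 1903. Of 3 endothelial genes found, 2 were higher in the Flag-IPs, and of 4 epithelial genes 2 were higher in the HA-IPs. Of the endothelial 2, TEK had 1.41, 5.94 and 2.21 normalized counts in the HA-IPs and has the same limit. No listed gene was at 0 in every HA-IP. Their part in the results on replication genes was not tested. In these bulk libraries fewer cells of a phase and less RNA per cell cannot be told apart.

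Promoter sequence was examined for what the genes share apart from their function. RefSeq windows (GRCh38.p14) from 250 bases before to 50 bases after a start site were given for 41 of the 50 genes, in 54 windows. An E2F core, which is spelled TTCCCGC in its first form, TTCGCGC in another, TTGGCGC in a further one and TTGCCGC in the last, was searched on either strand and was present for 29 of the 41 genes (70.7%), compared with 24.8% of 11687 genes of the table that have a window. Counted by window, 31 of the 54 had a match, compared with 12.97% of all 35116 windows. By step, 6 of 10 licensing genes, 5 of 9 firing genes and 18 of 22 fork genes had a match. A CCAAT box (CCAAT, either strand), which can share bases with the TTGGCGC form, was present for 23 of 41 (56.1%, compared with 43.0% of genes of the table). The CHR motif of late cell cycle genes (TTTGAA or TTCGAA, either strand) was present for 3 of 41 (7.32%, compared with 15.5%). Of the members with a window, 8 of the 10 that were higher in the HA-IPs had the E2F core, as did 20 of the 30 that did not pass the test. These are matches of letters, not binding sites. The 120 bases before the start site are printed for 6 genes, 5 with the motif and, as a contrast, MCM10, which has none in its window and was also higher in the HA-IPs. Capitals mark the E2F core, and all are on GRCh38.p14, 5′ to 3′ on the strand of the gene: ORC1 at chr1:52404424-52404543 (minus), MCM6 at chr2:135876444-135876563 (minus), MCM10 at chr10:13161438-13161557 (plus), CDC7 at chr1:91500731-91500850 (plus), GINS2 at chr16:85688955-85689074 (minus) and TIPIN at chr15:66356686-66356805 (minus, before another of its listed starts).
ORC1: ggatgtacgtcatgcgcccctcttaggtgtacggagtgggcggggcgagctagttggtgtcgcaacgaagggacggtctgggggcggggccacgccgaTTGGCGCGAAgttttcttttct
MCM6: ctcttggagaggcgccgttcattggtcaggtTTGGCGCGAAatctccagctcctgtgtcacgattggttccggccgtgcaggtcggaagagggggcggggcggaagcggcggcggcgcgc
MCM10: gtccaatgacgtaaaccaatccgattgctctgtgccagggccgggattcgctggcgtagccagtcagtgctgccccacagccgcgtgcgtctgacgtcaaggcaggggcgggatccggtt
CDC7: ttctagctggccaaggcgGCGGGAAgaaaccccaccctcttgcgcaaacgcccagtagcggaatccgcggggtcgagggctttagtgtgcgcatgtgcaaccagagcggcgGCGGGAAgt
GINS2: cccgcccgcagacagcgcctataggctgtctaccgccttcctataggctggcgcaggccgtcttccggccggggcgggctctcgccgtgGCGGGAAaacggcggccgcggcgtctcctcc
TIPIN: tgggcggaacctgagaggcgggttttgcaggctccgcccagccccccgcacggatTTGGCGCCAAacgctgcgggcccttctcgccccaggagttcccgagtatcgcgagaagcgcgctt
In ORC1 and MCM6 the capitals hold 2 overlapping cores on opposite strands, as they do in TIPIN, and in CDC7 and GINS2 each run of capitals is 1 core on the strand opposite to the gene. TIPIN was higher in the Flag-IPs, CDC7 and GINS2 did not pass the test, and ORC1 and MCM6 were higher in the HA-IPs.

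**Figure D1:**
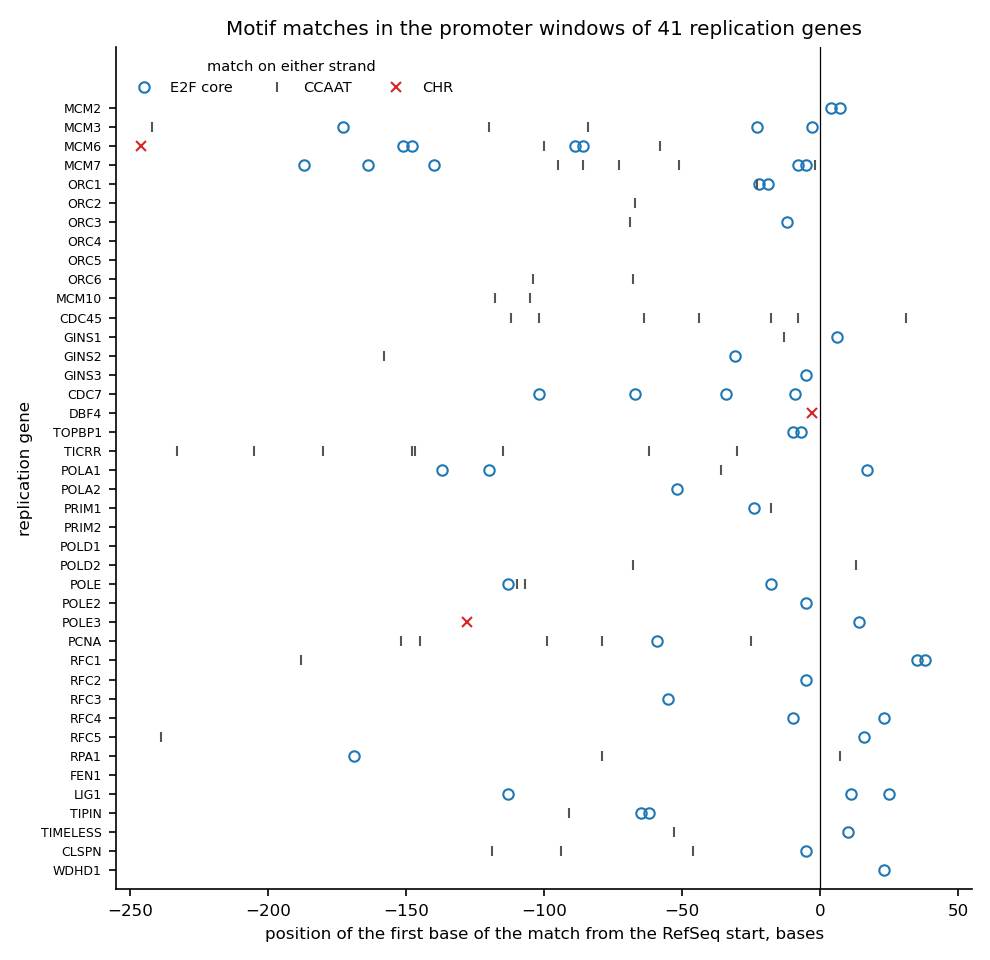
Each row is 1 of the 41 replication genes with a RefSeq promoter window and the horizontal axis is the distance in bases from the start site to the first base of a match on either strand, with all windows of a gene drawn together. Circles are E2F cores (29 genes), vertical strokes CCAAT boxes (23 genes) and crosses CHR motifs (3 genes), and most circles lie close to the start.

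The 50 genes lay mostly on the side of the HA-IPs, by small amounts, as shown in the plot of fold changes by complex. Of the 50, 13 were higher in the HA-IPs, 2 were higher in the Flag-IPs and 35 did not pass the test (limma on log2(normalized counts + 1), Benjamini-Hochberg adjusted p of at most 0.05 over all genes), and for comparison 5.79% of all genes tested were called higher in the HA-IPs and 7.10% higher in the Flag-IPs. The share of members was 26% in the first direction and 4% in the second. Their median log2 fold change (HA-IP over Flag-IP) was 0.090, with a positive value in 35 of 50, compared with a median of -0.0049 and 49.0% positive over all genes. The 13 fold changes ranged from 0.17 to 0.28 on the log2 scale, that is ratios of 1.12 to 1.21. All 3 HA-IPs lay above all 3 Flag-IPs for 18 members and below them for 4, and over all genes each of these patterns held for 16.1%. The number of members called higher in the HA-IPs depended on single libraries: it was 0 without Flag-IP replicate 2 (14 at an unadjusted p of at most 0.05), 3 without HA-IP replicate 1, 6 without HA-IP replicate 2, 5 without HA-IP replicate 3, 12 without Flag-IP replicate 1 and 17 without Flag-IP replicate 3, with medians of 0.072 to 0.10. On the recovered reads edgeR called 12 and DESeq2 called 14, and limma without the trend of variance on the mean called 0 (15 at an unadjusted p of at most 0.05).

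**Figure D2:**
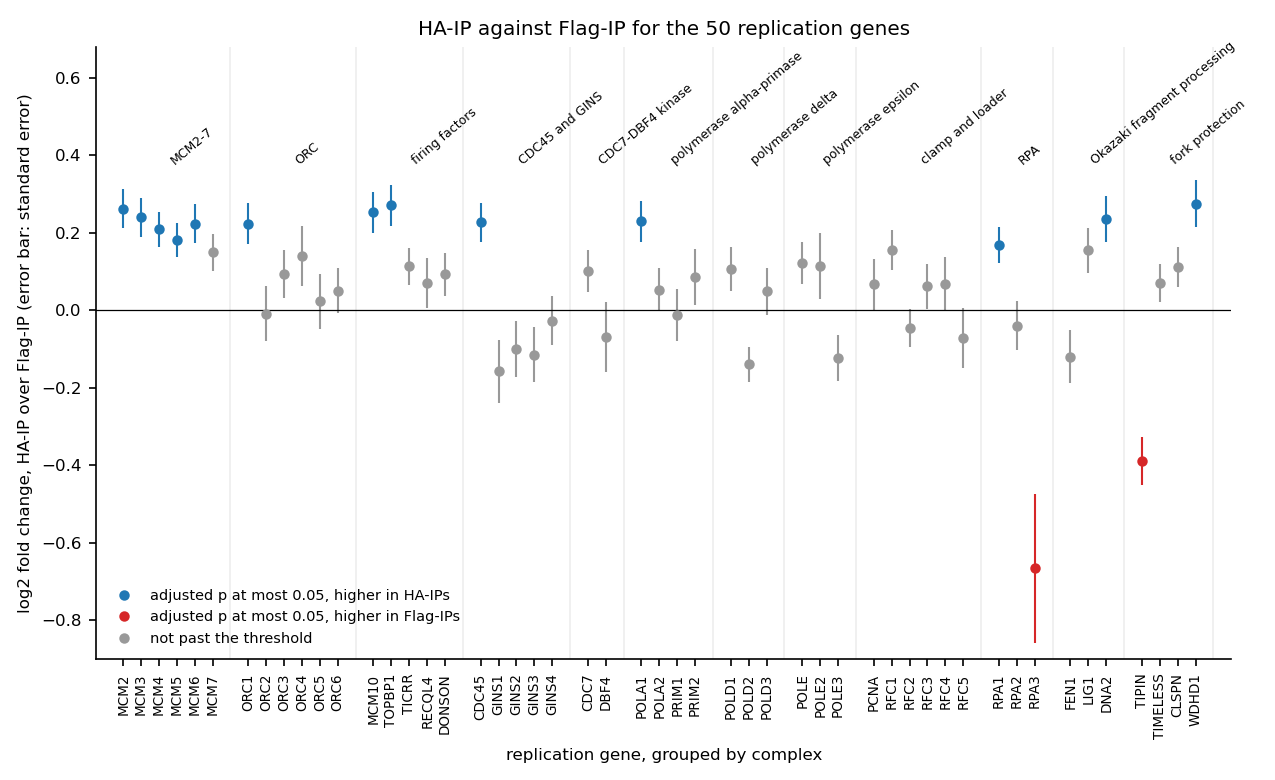
Points are the log2 fold changes (HA-IP over Flag-IP, vertical axis) of the 50 replication genes with standard errors from limma, grouped by complex along the horizontal axis. The 13 blue points passed the threshold above 0, the 2 red points (TIPIN and RPA3) passed below 0 and the 35 grey points did not pass, and the MCM2-7 genes all lie above 0.

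Licensing was the step with the most calls, 6 of 12 higher in the HA-IPs against 0 higher in the Flag-IPs (0 also at an unadjusted p of at most 0.05, and with edgeR and DESeq2), with a median log2 fold change of 0.17. Shares of the 12 were 50% and 0%, beside 5.79% and 7.10% of all genes. So few genes cannot set 0% apart from 7.10%. The calls were concentrated in MCM2-7, the ring-shaped helicase that unwinds DNA at the fork: 5 of its 6 genes passed, and the median was 0.22. All 6 had every HA-IP above every Flag-IP, a pattern that held for 16.1% of all genes. MCM2 had 25819.9, 25503 and 25212 normalized counts across the HA-IPs, compared with 20159, 21209.6 and 22475 across the Flag-IPs. Its HA-IPs lay within a narrow band above the highest Flag-IP, and the log2 fold change was 0.26 (SE 0.051, limma adjusted p = 0.00798). MCM3 had 25371, 26270.1 and 27749 normalized counts over the Flag-IPs, and 30649.9, 31046 and 32007 over the HA-IPs. These groups also stood apart, by 0.24 on the log2 scale (SE 0.050, limma adjusted p = 0.0110). MCM4 was counted at 16944, 16301 and 17428 normalized counts for Flag-IP replicates 1 to 3 against 19733, 19394 and 19438 for HA-IP replicates 1 to 3. MCM5 was counted at 12369.8, 12532 and 12318 normalized counts across the HA-IPs, compared with 10736, 10902 and 11175 across the Flag-IPs. Both genes had the 3 HA-IPs close together and clear of the Flag-IPs, with log2 fold changes of 0.21 (SE 0.046, limma adjusted p = 0.0132) and 0.18 (SE 0.043, limma adjusted p = 0.0196). MCM6 reached 18944, 18326 and 19944 normalized counts over the Flag-IPs, and 23171, 21386 and 22267 over the HA-IPs. The spread within its HA-IPs was wider than in MCM4, yet the groups did not overlap and the log2 fold change was 0.22 (SE 0.051, limma adjusted p = 0.0165). MCM7 was the most abundant member, with 42219.5, 42715 and 44631 normalized counts for Flag-IP replicates 1 to 3 against 48199, 47302 and 48215 for HA-IP replicates 1 to 3. Every HA-IP was higher than every Flag-IP here too, but the log2 fold change of 0.15 (SE 0.048) missed the threshold (limma adjusted p = 0.0618). MCM7 (chr7:100092233-100101940, minus strand, GRCh38) shares 392 bases with AP4M1 on the other strand, which had 346 to 391 normalized counts, and the strand setting of the counting is not given in the sources used here. Shared bases here and below are those of whole gene spans, introns included, and overlap of exons was not measured. The 6 MCM2-7 genes had a positive log2 fold change in each of 18 fits. For the 12 licensing genes the number higher in the HA-IPs was 0 without Flag-IP replicate 2 (7 at an unadjusted p of at most 0.05), and 3, 2 and 1 without HA-IP replicate 1, 2 and 3. For MCM2-7 alone it was 0 without Flag-IP replicate 2 (6 at an unadjusted p of at most 0.05), 2 without HA-IP replicate 1, 2 without HA-IP replicate 2, 1 without HA-IP replicate 3 and 1 after quantile normalization. Within the Flag-IPs all 6 genes were highest in replicate 3, the Flag-IP with the lowest heart muscle sum. MCM2, MCM3, MCM5 and MCM7 were lowest in replicate 1, where that sum was highest, while MCM4 and MCM6 were lowest in replicate 2. Among the HA-IPs the heart muscle sum was highest in replicate 3. In that library MCM3 and MCM7 were the highest of the HA-IPs, MCM2 and MCM5 the lowest, and MCM4 and MCM6 in between. Whether the marker genes have a part in these differences was not tested.

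**Figure D3:**
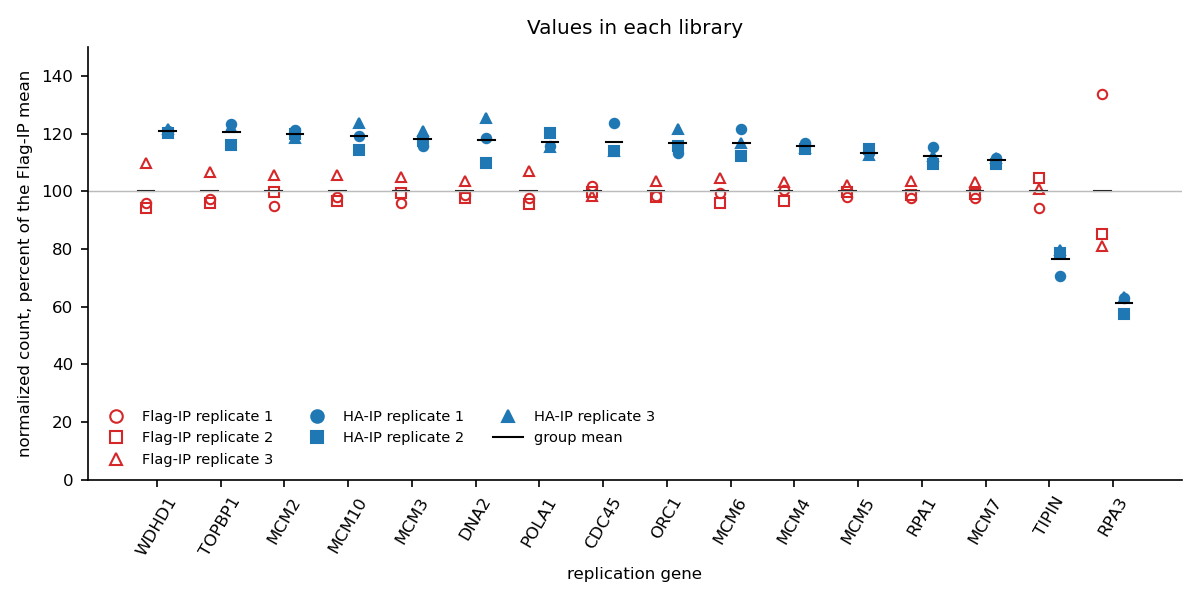
Normalized counts in each library as percent of the mean of the 3 Flag-IPs, for the 15 called members and MCM7, ordered by fold change; open red symbols are Flag-IPs, filled blue symbols HA-IPs and short black lines group means. The HA-IPs lie above the Flag-IPs for the 14 genes on the left and below them for TIPIN and RPA3, and RPA3 shows the widest spread, with Flag-IP replicate 1 far above the other Flag-IPs.

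Of the 6 ORC genes, 1 was called, higher in the HA-IPs (16.7%, beside 5.79% of all genes). The same gene was the only 1 of the 6 with every HA-IP above every Flag-IP, a share near the 16.1% of all genes. ORC1, the subunit whose level varies in the cell cycle and which carries an ATPase site, had 2969, 3029 and 3188 normalized counts across the HA-IPs, compared with 2578, 2567 and 2717 across the Flag-IPs. Every HA-IP was above every Flag-IP, and the log2 fold change was 0.22 (SE 0.052, limma adjusted p = 0.0172). ORC2 to ORC5, which complete the ring with ORC1, and ORC6, which lies outside it, had overlapping groups and log2 fold changes between -0.0092 (ORC2) and 0.14 (ORC4), with limma adjusted p of 0.274 or more. ORC2 had 1287, 1101 and 1114 normalized counts over the Flag-IPs, and 1178, 1164 and 1129 over the HA-IPs, so that the lowest and the highest library were both Flag-IPs. The direction for ORC2 reversed under quantile normalization and for ORC5 and ORC6 under scaling to the same total, so none can be given for these 3 genes. ORC1 itself passed in 3 of the 6 fits that each left out 1 library.

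Among the 12 firing genes, 3 were higher in the HA-IPs, 0 were higher in the Flag-IPs (0 at an unadjusted p of at most 0.05, and with edgeR and DESeq2), and the median log2 fold change was 0.081. Shares of the 12 were 25% and 0%, beside 5.79% and 7.10% of all genes, and so few genes cannot set 0% apart from 7.10%. The 3 were TOPBP1, MCM10 and CDC45. TOPBP1, the scaffold that brings GINS to the origin and also activates the ATR checkpoint kinase, had 5624, 5544 and 6152 normalized counts for Flag-IP replicates 1 to 3 against 7122, 6704 and 7057 for HA-IP replicates 1 to 3. The highest Flag-IP stayed below the lowest HA-IP, with a log2 fold change of 0.27 (SE 0.053, limma adjusted p = 0.00862). MCM10, which is needed for the assembled helicase to start moving, had 7248, 6954 and 7516 normalized counts across the HA-IPs, compared with 5959.6, 5862 and 6411 across the Flag-IPs. Its groups did not overlap, and the log2 fold change was 0.25 (SE 0.052, limma adjusted p = 0.0105). CDC45, the subunit that joins MCM2-7 together with GINS, had 3779, 3710.0 and 3652 normalized counts over the Flag-IPs, and 4592, 4231 and 4231 over the HA-IPs. The Flag-IPs of CDC45 lay close together and HA-IP replicate 1 was the highest library, with a log2 fold change of 0.23 (SE 0.051, limma adjusted p = 0.0144). CDC45 passed in 4 of the 6 fits without 1 library, TOPBP1 in 4 and MCM10 in 3. The number of firing genes higher in the HA-IPs was 0 without Flag-IP replicate 2 and 0 without HA-IP replicate 1 (3 at an unadjusted p of at most 0.05 in each), and the median was 0.045 without Flag-IP replicate 1.

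GINS, the partner of CDC45 in the active helicase, went the other way in sign, and 0 of its 4 genes passed the test (0 at an unadjusted p of at most 0.05, and with edgeR and DESeq2). So few genes cannot set this apart from the 5.79% and 7.10% of all genes. GINS1 had 1312, 1163 and 1049.7 normalized counts for Flag-IP replicates 1 to 3 against 1078, 1010.2 and 1059 for HA-IP replicates 1 to 3. GINS2 had 864, 864 and 963 normalized counts across the HA-IPs, compared with 1014, 972 and 897 across the Flag-IPs. In both genes Flag-IP replicate 1 was the highest library and the groups overlapped. The log2 fold changes were -0.16 for GINS1, -0.10 for GINS2, -0.11 for GINS3 and -0.026 for GINS4, with limma adjusted p from 0.232 to 0.835, and all 4 stayed negative in each of 18 fits. GINS1 passed in 1 of the 6 fits without 1 library. It shares 1107 bases with NINL on the other strand, which had 1118 to 1262 normalized counts. The kinase pair did not pass either: CDC7, the catalytic subunit, had a log2 fold change of 0.10 (limma adjusted p = 0.261), and its activator DBF4 had -0.069 (limma adjusted p = 0.688), which turned positive without Flag-IP replicate 1. TICRR, the TOPBP1 partner also called Treslin, had 6301, 6726 and 6867 normalized counts over the Flag-IPs, and 7203, 7119 and 7191 over the HA-IPs. Each HA-IP was higher than each Flag-IP, but the log2 fold change of 0.11 had a limma adjusted p of 0.148. TICRR shares 22268 bases, introns included, with KIF7 on the other strand. Reads of these genes may not be told apart where exons overlap and the counting ignored strand. RECQL4, a helicase of the RecQ family, and DONSON, which helps to bring GINS to the origin, had log2 fold changes of 0.070 and 0.093 with overlapping groups. DONSON shares 17940 bases, introns included, with SON on the other strand, which had 31711 to 39960 normalized counts. SON was itself higher in the HA-IPs (log2 fold change 0.22, limma adjusted p = 0.0362). As overlap of exons was not measured, the DONSON value is uncertain to an unknown degree.

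The fork held 4 genes higher in the HA-IPs and 2 higher in the Flag-IPs among 26, with a median log2 fold change of 0.067. These are 15.4% and 7.69% of the 26, beside 5.79% and 7.10% of all genes, so that the share on the side of the Flag-IPs was near that of all genes. The number higher in the HA-IPs was 0 without Flag-IP replicate 2 (4 at an unadjusted p of at most 0.05), 0 without HA-IP replicate 1 (7 at that level), 1 without HA-IP replicate 2, 2 without HA-IP replicate 3 and 7 without Flag-IP replicate 3, and the number higher in the Flag-IPs was 3 without Flag-IP replicate 3 and 1 without Flag-IP replicate 2 or any 1 of the HA-IPs. Among the 10 polymerase and primase genes, 1 passed, too few to set apart from the shares of all genes. POLA1, the catalytic subunit of polymerase alpha, which extends the RNA primer, had 8045, 7863 and 8817 normalized counts for Flag-IP replicates 1 to 3 against 9543, 9915 and 9513 for HA-IP replicates 1 to 3. The groups were apart, with a log2 fold change of 0.23 (SE 0.053, limma adjusted p = 0.0165). Its partners POLA2, PRIM1 and PRIM2 had log2 fold changes of 0.053, -0.012 and 0.087 and did not pass (limma adjusted p of 0.491 or more), and PRIM1, the catalytic primase subunit, shares 1191 bases with NACA on the same strand, which was higher in the Flag-IPs (log2 fold change -0.35, limma adjusted p = 0.0244). POLE, the catalytic subunit of the leading strand polymerase, had 18004, 18584 and 18126 normalized counts across the HA-IPs, compared with 15964, 16343 and 18028 across the Flag-IPs. Flag-IP replicate 3 reached into the range of the HA-IPs, and the log2 fold change of 0.12 (SE 0.053) did not pass (limma adjusted p = 0.165). POLD2, an accessory subunit of polymerase delta, was the uncalled gene nearest to the threshold on the side of the Flag-IPs, with 5479, 5344 and 5295 normalized counts over the Flag-IPs, and 4762, 4986 and 4892 over the HA-IPs. All Flag-IPs were above all HA-IPs, and the log2 fold change was -0.14 (SE 0.045, limma adjusted p = 0.0680). With quantile normalization POLD2 passed (log2 fold change -0.18, limma adjusted p = 0.0282), and with GC content and length trends removed its log2 fold change was -0.040 (limma adjusted p = 0.578). POLD1, the catalytic subunit of polymerase delta, and POLD3 had positive fold changes of 0.11 and 0.049, POLE2 had 0.12, and POLE3, a histone-fold subunit, had -0.12 with all Flag-IPs above all HA-IPs (limma adjusted p = 0.214).

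None of the 6 genes of the sliding clamp and its loader passed (1 at an unadjusted p of at most 0.05, and 0 with edgeR and with DESeq2). PCNA, the clamp that tethers polymerases to DNA and a gene long used as a proliferation marker, had 6279, 5427 and 5339.7 normalized counts for Flag-IP replicates 1 to 3 against 6167, 5634 and 6018 for HA-IP replicates 1 to 3. The highest library was Flag-IP replicate 1 and the groups overlapped, with a log2 fold change of 0.067 (SE 0.065, limma adjusted p = 0.563). PCNA passed when GC content and length trends were removed (log2 fold change 0.20, limma adjusted p = 0.0145). RFC1, the large subunit of the loader, had 5651, 5619 and 5953 normalized counts across the HA-IPs, compared with 5043, 4969 and 5449 across the Flag-IPs. Its HA-IPs were all above its Flag-IPs, with a log2 fold change of 0.16 (SE 0.052, limma adjusted p = 0.0711). The small subunits RFC2 to RFC5 lay between -0.072 (RFC5) and 0.067 (RFC4), with overlapping groups.

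RPA, the 3-subunit complex that covers single-stranded DNA, had a call in each direction. Each is 33.3% of the 3 genes, beside 5.79% and 7.10% of all genes, and so few genes cannot set these shares apart. RPA1, the large DNA-binding subunit, had 14063, 14190.4 and 14901 normalized counts over the Flag-IPs, and 16608, 15722 and 16150.0 over the HA-IPs. The groups did not overlap, and the log2 fold change was 0.17 (SE 0.047, limma adjusted p = 0.0373). RPA1 passed in 1 of the 6 fits without 1 library and had a log2 fold change of 0.077 (limma adjusted p = 0.233) with quantile normalization. RPA2, the subunit that checkpoint kinases phosphorylate, had a log2 fold change of -0.040, and its sign changed when GC content and length trends were removed. RPA3, the small subunit, was the least abundant member, with 205, 131 and 125 normalized counts for Flag-IP replicates 1 to 3 against 96.7, 88.1 and 97.0 for HA-IP replicates 1 to 3. Flag-IP replicate 1 was well above the other 5 libraries, and each HA-IP was below each Flag-IP. The log2 fold change of RPA3 was -0.67 (SE 0.19, limma adjusted p = 0.0429), the largest in size among the 50, and it passed in 1 of the 6 fits without 1 library. RPA3 (chr7:7636518-7718607, minus strand, GRCh38) lies with 77897 of its bases, introns included, inside UMAD1 on the other strand. UMAD1 had 138, 121 and 178 normalized counts across the HA-IPs, compared with 225, 182 and 172 across the Flag-IPs, at a log2 fold change of -0.41 that did not pass (limma adjusted p = 0.129). Reads of RPA3 and UMAD1 may not be told apart where exons overlap and the counting ignored strand. As overlap of exons was not measured, the RPA3 value is uncertain to an unknown degree.

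Okazaki fragment processing held 1 call, higher in the HA-IPs. That is 33.3% of its 3 genes, beside 5.79% of all genes, and so few genes cannot set these shares apart. DNA2, the nuclease-helicase that cuts long flaps, had 2066, 2049 and 2172 normalized counts over the Flag-IPs, and 2485, 2298 and 2631 over the HA-IPs. The lowest HA-IP was above the highest Flag-IP, and the log2 fold change was 0.24 (SE 0.060, limma adjusted p = 0.0265). FEN1, the nuclease for short flaps, had 10831, 12434 and 13359.8 normalized counts for Flag-IP replicates 1 to 3 against 10953, 11458 and 11181 for HA-IP replicates 1 to 3. The HA-IPs fell inside the range of the Flag-IPs, whose replicate 3 was the highest library, and the log2 fold change was -0.12 (SE 0.068, limma adjusted p = 0.291). FEN1 passed with quantile normalization (log2 fold change -0.20, limma adjusted p = 0.0483), and 4259 of its bases (chr11:61792911-61797238, plus strand, GRCh38) lie within the span of FADS2 on the same strand. Where exons of the pair overlap, which was not measured, their reads can be assigned to either gene or dropped. LIG1, the ligase that seals the fragments, had all HA-IPs above all Flag-IPs, with a log2 fold change of 0.15 (SE 0.059, limma adjusted p = 0.111).

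Of the 4 fork protection genes, 1 (WDHD1) was higher in the HA-IPs and 1 (TIPIN) was higher in the Flag-IPs, with a median log2 fold change of 0.091 and a positive value in 3. Each call is 25% of the 4, beside 5.79% and 7.10% of all genes, and so few genes cannot set these shares apart. TIPIN, the small partner of TIMELESS that links the fork to RPA and the checkpoint, had 2304, 2563 and 2596 normalized counts across the HA-IPs, compared with 3071, 3409 and 3284 across the Flag-IPs. Each HA-IP was below each Flag-IP, and the lowest library was HA-IP replicate 1. The log2 fold change of TIPIN was -0.39 (SE 0.062, limma adjusted p = 0.00306), which passed in 6 of the 6 fits without 1 library and in 10 of the 11 other fits. WDHD1, which couples polymerase alpha to the helicase, had 3971, 3913 and 4557 normalized counts over the Flag-IPs, and 5008, 4979 and 5040.4 over the HA-IPs. All HA-IPs were above all Flag-IPs, and its log2 fold change of 0.28 (SE 0.060, limma adjusted p = 0.0132) was the highest of the 50. CLSPN, the mediator of the checkpoint kinase CHEK1, had 4192, 4320.4 and 4335 normalized counts for Flag-IP replicates 1 to 3 against 4352, 4704 and 4839 for HA-IP replicates 1 to 3. Its highest Flag-IP was just below its lowest HA-IP, and the log2 fold change of 0.11 (SE 0.052) did not pass (limma adjusted p = 0.193). TIMELESS had a log2 fold change of 0.070 (limma adjusted p = 0.403), and its sign turned under quantile normalization.

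For 5 pairs of partners, chosen after their fold changes had been seen, ratios of levels per kilobase of transcript are given as a description, and no test of them is used. TIPIN over TIMELESS was 0.853, 0.910 and 0.825 in the Flag-IPs against 0.581, 0.653 and 0.651 in the HA-IPs. The groups were apart, by -0.46 on the log2 scale. CDC45 over GINS2 was 5.21, 5.34 and 5.69 in the Flag-IPs against 7.43, 6.85 and 6.15 in the HA-IPs, a change of 0.33 on the log2 scale. ORC1 over ORC2 was 2.75, 3.20 and 3.35 in the Flag-IPs against 3.46, 3.58 and 3.88 in the HA-IPs, a change of 0.23. RPA3 over RPA1 was 0.0350, 0.0221 and 0.0201 in the Flag-IPs against 0.0140, 0.0135 and 0.0144 in the HA-IPs, a change of -0.84, with the limit on RPA3 given above. PRIM1 over POLA1 was 0.464, 0.478 and 0.384 in the Flag-IPs against 0.388, 0.356 and 0.372 in the HA-IPs, with overlap between the groups (log2 change -0.24).

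Levels per kilobase of canonical transcript set the members in order within each complex, as the plot of levels per transcript length shows. In MCM2-7 the order over all libraries was MCM7 (mean 18462 normalized counts per kilobase), MCM3 (9403), MCM2 (6813), MCM6 (5508), MCM4 (4482) and MCM5 (3375), although the 6 proteins form a ring with 1 copy of each. ORC1 (910.3) and ORC6 (918) were the highest of ORC and their ranges overlapped, followed by ORC3 (785), ORC5 (351), ORC2 (271) and ORC4 (224). CDC45 (2146) stood above GINS3 (505), GINS2 (354), GINS1 (336) and GINS4 (246), with GINS2 and GINS1 within each other's range. CDC7 (768) was above its activator DBF4 (173), and PCNA (4554) above the 5 loader genes (832 to 1435). Among the polymerases POLD2 (3186), POLD1 (2919), POLE (2238) and POLA1 (1631) were higher than the remaining subunits. The spread was widest in RPA, from RPA1 (3151) through RPA2 (1159) to RPA3 (61.3). These levels rest on 1 annotated transcript a gene, which may not be the isoform these cells use.

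**Figure D4:**
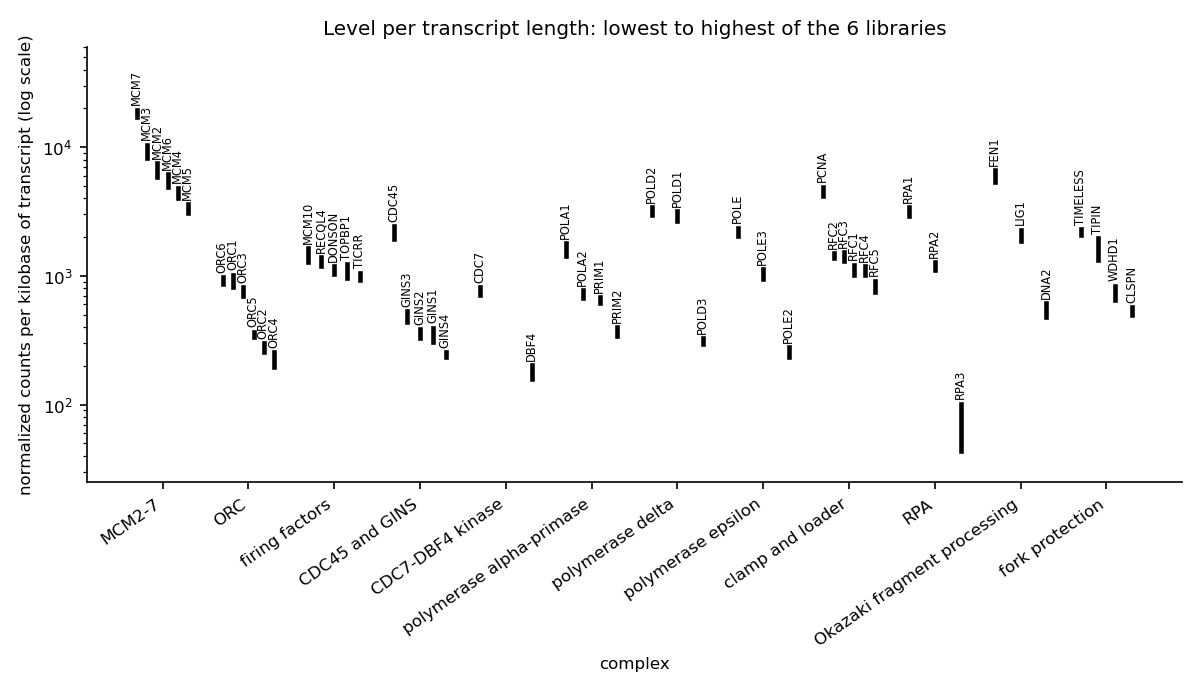
Bars run from the lowest to the highest of the 6 libraries in normalized counts per kilobase of canonical transcript (vertical axis, log scale), for the 50 replication genes grouped by complex along the horizontal axis. MCM7 has the highest level (mean 18462) and RPA3 the lowest (mean 61.3).

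The fold changes varied with transcript length and with level, as the plot of fold change against transcript length shows. Of the 20 members with a canonical transcript under 2500 bases, 1 (CDC45) was higher in the HA-IPs and 2 (TIPIN and RPA3) were higher in the Flag-IPs, with a median log2 fold change of 0.0057. Of 16 members of at least 2500 but under 4000 bases, 5 were higher in the HA-IPs (median 0.098), and of 14 members of 4000 bases or more, 7 were (median 0.16), with 0 higher in the Flag-IPs in either class. Over all genes of any length 5.79% were called higher in the HA-IPs and 7.10% higher in the Flag-IPs. Shares of all genes within each length class were not determined, so the rise in calls with length is not particular to the members. Across the 50 members Pearson's r between fold change and length was 0.45 and Spearman's rho 0.53, and across 13091 genes whose mean was 50 normalized counts or more they were 0.20 and 0.27. Against the mean level the members had r of 0.59 and rho of 0.59 (all these genes 0.19 and 0.26). These are descriptions over genes of the same 6 libraries. When trends with GC content and length were removed in each library, rho with length over the members was 0.21, and 17 members were higher in the HA-IPs, the 13 above and LIG1, MCM7, PCNA and RFC4. The medians of the 3 length classes were then 0.083, 0.086 and 0.14. With quantile normalization r and rho with the mean level were 0.36 and 0.30 over the members, and 0.019 and -0.079 over the 13091 genes. In that fit 8 members were higher in the HA-IPs, all 8 among the 13 above, and 1 of them was an MCM2-7 gene.

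**Figure D5:**
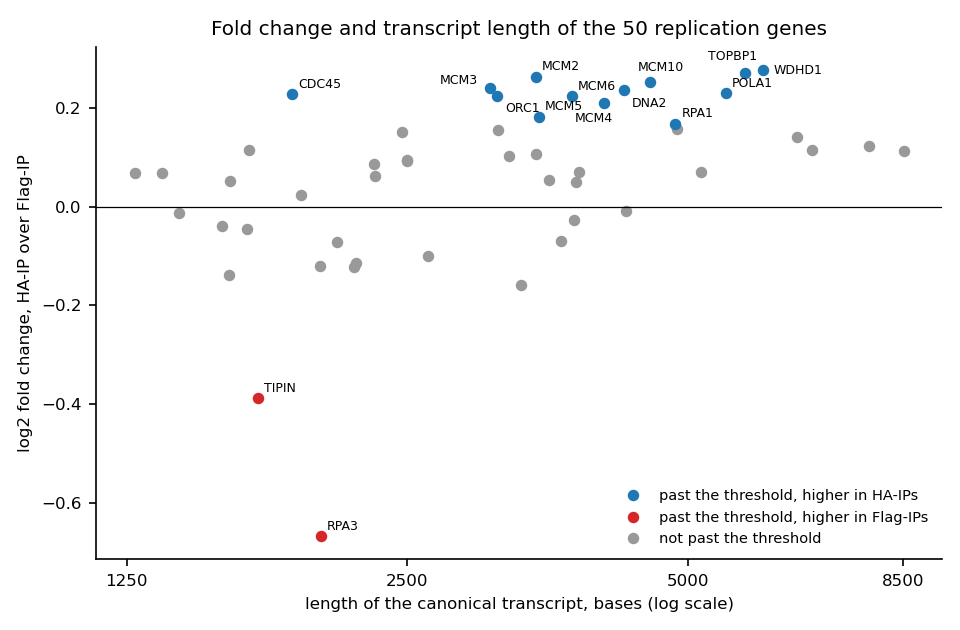
Each point is 1 of the 50 replication genes, with the length of its canonical transcript in bases (horizontal axis, log scale) and its log2 fold change, HA-IP over Flag-IP (vertical axis). Blue points (13) and red points (2) passed the threshold, and 12 of the 13 blue points belong to transcripts of 2500 bases or more.

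Other genes were set beside these as a comparison. Of 36 further replication genes 35 were in the table, where 8 were higher in the HA-IPs and 2 higher in the Flag-IPs, with a median log2 fold change of 0.080. Shares of the 35 were 22.9% and 5.71%, beside 5.79% and 7.10% of all genes. The share on the side of the Flag-IPs was thus near that of all genes. CDC6, which loads MCM2-7 together with ORC and CDT1, had 7641, 7612 and 8400.3 normalized counts across the HA-IPs, compared with 6444, 6347 and 6827 across the Flag-IPs. The groups were apart, with a log2 fold change of 0.27 (SE 0.054, limma adjusted p = 0.00922). CDT1 had 5336, 5765 and 5897 normalized counts over the Flag-IPs, and 5779.9, 6336 and 5846 over the HA-IPs. GMNN, the gene of Geminin, had 3952, 3739 and 3972 normalized counts for Flag-IP replicates 1 to 3 against 3603, 4373 and 4652 for HA-IP replicates 1 to 3. Both had overlapping groups and log2 fold changes of 0.080 and 0.11 (limma adjusted p = 0.401 and 0.440), and as the construct holds human fragments of both genes, their reads may come in part from the transgene. The next largest in the HA-IPs were MCMBP, which binds MCM subunits outside the ring, TOP2A and RIF1. MCMBP had 11505, 10390.2 and 11247 normalized counts across the HA-IPs, compared with 9531, 8671 and 9472 across the Flag-IPs. TOP2A, the topoisomerase that untangles sister DNA, had 41413, 41019 and 45474 normalized counts over the Flag-IPs, and 50213, 50174 and 51930.0 over the HA-IPs. RIF1, which holds back late origins, had 11483, 11300.2 and 13005 normalized counts for Flag-IP replicates 1 to 3 against 14425, 13666 and 14285 for HA-IP replicates 1 to 3. All 3 genes had every HA-IP above every Flag-IP, with log2 fold changes of 0.26, 0.25 and 0.25 (limma adjusted p = 0.0126, 0.0122 and 0.0191). The 2 on the side of the Flag-IPs were POLE4, a histone-fold subunit of polymerase epsilon, and RNASEH2C, a subunit of the nuclease that removes ribonucleotides from DNA. POLE4 had 299, 304 and 385 normalized counts across the HA-IPs, compared with 473, 454 and 381 across the Flag-IPs. RNASEH2C had 1093, 1192 and 1179 normalized counts over the Flag-IPs, and 992, 920.1 and 1005 over the HA-IPs. POLE4 overlapped between the groups at HA-IP replicate 3 (log2 fold change -0.41, limma adjusted p = 0.0480), and RNASEH2C did not overlap (-0.25, limma adjusted p = 0.0306). POLE4 passed in 2 and RNASEH2C in 1 of the 6 fits without 1 library. As for the 50 members, 0 of these 35 were called higher in the HA-IPs without Flag-IP replicate 2 (9 at an unadjusted p of at most 0.05), and the number was 2, 2 and 1 without HA-IP replicate 1, 2 and 3.

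Members that belong to a list of S phase genes in common use and members outside it were given side by side. Of the 15 in the list, 6 were higher in the HA-IPs, 1 (TIPIN) was higher in the Flag-IPs and the median was 0.067 on the log2 scale, and of the 35 outside it 7 were higher in the HA-IPs, 1 (RPA3) was higher in the Flag-IPs and the median was 0.093. The shares were 40% and 6.67% of the 15, and 20% and 2.86% of the 35, beside 5.79% and 7.10% of all genes. The median of the 15 was 0.036 without Flag-IP replicate 2 and 0.039 without HA-IP replicate 1. The other 28 genes of the S phase list had 9 higher in the HA-IPs (32.1%), 0 in the Flag-IPs (0 at an unadjusted p of at most 0.05, and with edgeR and DESeq2) and a median of 0.12. These 28 share CDC6, GMNN, CHAF1B and DSCC1 with the further replication genes. A list of 48 mitotic genes, which shares TOP2A with the further replication genes, had 17 higher in the HA-IPs (35.4%) and 1 higher in the Flag-IPs (2.08%) with a median of 0.17. Without Flag-IP replicate 2 the number of mitotic genes higher in the HA-IPs was 1, and without HA-IP replicate 1, 2 and 3 it was 3, 5 and 3. Both groups of members had 0 genes higher in the HA-IPs without Flag-IP replicate 2, and the 28 genes had 2 without that library and 4 without HA-IP replicate 2. The differences between these lists were not tested.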

How the data were processed

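RNA bound by Flag-tagged (3 libraries) or HA-tagged (3 libraries) ribosomes of asynchronously cycling HEK293-T cells carrying ccTaggedRP was sequenced as poly(A)-selected libraries. The authors trimmed reads (Trimmomatic 0.36), mapped them to GRCh38 (STAR 2.5.2b), counted them per gene (Subread 1.5.2, per the labels) and left out genes with few reads. The authors deposited a normalized signal for each library, made by dividing its read counts by its size factor. Whole reads were recovered from it for 100% of values (tolerance 0.01 reads). The deposited log2 fold changes and adjusted p-values of the authors' own comparison were not used. Strand setting and annotation release are not given in the sources used here.

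The members and all lists were chosen with earlier results of these data known. All 16834 genes were tested with limma 3.58.1 (R 4.3.3) on log2(normalized counts + 1), HA-IP against Flag-IP, two-sided, letting the variance follow the mean level, with Benjamini-Hochberg adjustment at 0.05. A fold change on this scale understates that of the lowest genes. An exact permutation test of the partner ratios cannot fall below p = 0.1 with 3 against 3 libraries, so it decides nothing and is not used. Transcript lengths and GC content came from canonical transcripts of GENCODE 44, which matched 99.1% of identifiers. Values per library were given for called members, for MCM2-7, ORC1, CDC45, PCNA, POLA1, POLE, RFC1, RPA1, FEN1, CLSPN and TOPBP1, for the 2 uncalled members with the smallest adjusted p, for the members of highest and lowest level, and of the further genes for the called ones (at most 4 a direction by fold change), CDC6, CDT1 and GMNN; others were chosen after their values were seen. Alternatives were pseudocounts of 0.1 and 10, a mean of at least 50, quantile normalization, the same total or upper quartile, edgeR 4.0.16 and DESeq2 1.42.0 on recovered reads, no variance trend, a replicate block, each library left out, GC and length trends removed (natural splines, 5 degrees of freedom, MASS) and an adjusted p of at most 0.01. The fits were tested on simulated data whose changed genes had larger fold changes than any of the 50 members. How well changes as small as those of the members are recovered was not tested. Libraries held 23174532 to 44134833 reads, and the lowest member value rests on 88 reads in a library. Part of 1 marker list is not reported here.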

Additional observations from a re-analysis of the deposited data

How the results depend on the processing

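The counts of calls changed most when the variance was not tied to the mean level. Without the variance trend limma called 6 genes higher in the HA-IPs and 182 higher in the Flag-IPs among all genes (main counts 975 and 1196), and 0 in either direction among the members, their licensing, firing and fork groups, the members in and outside the S phase list, the further replication genes and the mitotic list. With the threshold on the adjusted p lowered to 0.01, 177 genes were higher in the HA-IPs and 527 higher in the Flag-IPs over all genes, and 2 and 1 over members. At that threshold licensing had 1, firing 1 and fork 0 higher in the HA-IPs, fork had 1 higher in the Flag-IPs, the members in the S phase list 1 and those outside it 1 higher in the HA-IPs and the latter 0 higher in the Flag-IPs, the further replication genes 1 and 0, and the mitotic list 2 higher in the HA-IPs.

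With quantile normalization, which moved the median of all genes by 0.049, 8 members were higher in the HA-IPs, with 2 licensing genes, 2 members of the S phase list (and 2 of it higher in the Flag-IPs), 4 further replication genes (0 higher in the Flag-IPs) and 9 mitotic genes. The medians were then 0.054 for members, 0.12 for licensing, 0.036 for firing, 0.034 for fork, 0.056 for members outside the S phase list and 0.11 for mitotic genes. With the same total per library, which moved the median of all genes by -0.052, 471 genes were higher in the HA-IPs, the fork had 2, the further replication genes 5 and the mitotic list 9 (2 higher in the Flag-IPs), and 2 members outside the S phase list were higher in the Flag-IPs. The medians were then 0.037 for members, 0.11 for licensing, 0.028 for firing, 0.014 for fork, 0.014 and 0.040 for members in and outside the S phase list, 0.027 for further replication genes and 0.11 for mitotic genes. With GC and length trends removed the firing median was 0.034, 7 fork genes were higher in the HA-IPs and 1 further replication gene was higher in the Flag-IPs, as was 1 with a mean of at least 50. The mitotic list had 2 genes higher in the Flag-IPs with edgeR, DESeq2, a pseudocount of 10 and the same upper quartile.

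Same-numbered libraries did not deviate together from their group means: the correlations of same-numbered Flag-IPs and HA-IPs over 13141 genes were -0.156, 0.0306 and -0.31, and not every library correlated best with the one of its own number. Deviations from the mean of so few libraries cannot exclude that the numbers stand for shared cultures. With the replicate number as a block 13 members were higher in the HA-IPs and 1 was higher in the Flag-IPs, the latter a fork gene, so that 0 members outside the S phase list and 0 further replication genes were higher in the Flag-IPs.

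Leaving out each library in turn gave 103 to 1550 genes higher in the HA-IPs and 517 to 1509 higher in the Flag-IPs over all genes. The ranges for members were 0 to 17 and 1 to 4. Licensing had 0 to 7 higher in the HA-IPs (median 0.16 to 0.19), firing 0 to 3 and 0 to 1 in the Flag-IPs (median 0.045 to 0.095), and fork 0 to 7 and 1 to 3. Members in the S phase list had 0 to 6 and 1 to 2, those outside it 0 to 11 and 0 to 3, the further replication genes 0 to 10 and 0 to 1, and the mitotic list 1 to 21 and 1 to 2. Among single genes 886 values kept their direction and side of the threshold, 136 lost the threshold, 16 passed it newly and 16 changed sign. The sign changes were ORC2 (0.0038 with quantile normalization, -0.050 to 0.063 without 1 library), ORC5 (-0.029 with the same total, -0.0061 to 0.067 without 1 library), ORC6 (-0.0017 with the same total), DBF4 (-0.15 to 0.030 without 1 library), PRIM1 (0.10 with GC and length trends removed, 0.015 with quantile normalization, -0.061 to 0.015 without 1 library), POLD3 (-0.0040 with the same total), RFC2 (0.019) and RPA2 (0.057) with GC and length trends removed, RPA2 (-0.071 to 0.021 without 1 library) and TIMELESS (-0.00086 with quantile normalization). The cause was not tested.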
